A study of Mus musculus with 43 samples.

Results

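The 6 libraries described here are 3 of mouse brown adipocytes labelled as Runx1 knockouts and 3 labelled as knockout controls, chosen by the column names of the knockout count table, out of 43 libraries in the series. The study altered Runx1 and Runx2 in brown preadipocytes and in inguinal white fat (iWAT), and its title speaks of enhanced formation of beige fat after either gene is deleted in adipocytes. Polyadenylated RNA was sequenced and the values are read counts per gene. The Runx1 knockout group carries the genotype label for loss of Runx1, and the control group is labelled WT. Both groups came from a cell line named BAT, were taken through brown adipocyte differentiation and are labelled mature brown adipocytes. The same table holds 3 cultures with Runx2 knocked out and 3 with both genes knocked out, treated alike. The column names of all its libraries begin with D7. The labels do not say how the genes were disrupted, how many clones were used, or whether libraries were made from independent cultures. The p-values therefore rest on the library-to-library spread, which may be technical. Other tables used for comparison hold 3 BAT cultures overexpressing Runx1 with 3 empty vector (OEV) cultures, and iWAT of 3 mice labelled Adipoq-cre:Runx1 KO with that of 3 floxed controls, in which the Adipoq promoter drives Cre in fat cells and other cells of the tissue keep the gene.

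RUNX1 is a transcription factor best known from blood formation that binds DNA as a partner of CBFB, recognises a short motif with the core TGTGGT or TGCGGT, and can activate or repress a gene depending on the cofactors it recruits, among them the Groucho (TLE) corepressors. RUNX2 shares its DNA-binding domain and is the main regulator of bone formation. Brown adipocytes burn fat to make heat, mostly through the mitochondrial uncoupling protein UCP1, while their precursors are fibroblast-like cells that build extracellular matrix and lose much of that program as they fill with lipid.

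The 6 libraries held 28.1 to 33.9 M counts, and 13551 of 26264 genes passed the count filter of the fit over the 12 libraries of the table. Levels are CPM, each library's counts scaled to its TMM-adjusted total, and log2 values are fold changes of Runx1 knockout over control with standard errors (SE) from edgeR's quasi-likelihood (QL) fit. A gene was called at a Benjamini-Hochberg adjusted p below 0.05 over all tested genes. Replicate 1 of the double knockout stood apart from all other libraries of the table, at 82.7 on the first principal component, against -18.7 to 11.2 in the rest. Because all 12 libraries share 1 estimate of the spread, the counts of calls over all genes and for the lists described are given with and without that library. Control replicate 1 stood apart on the third component, at 26.3 against -9.5 to 8.5. General adipocyte genes marked the cultures in both groups: Adipoq, the gene of the hormone adiponectin, had 984, 958 and 982 CPM in Runx1 knockout cultures and 945, 1040 and 1070 CPM in control cultures, and the fatty acid carrier Fabp4 had 3390 to 3820 CPM against 3140 to 3950 CPM. The sum of 8 mature adipocyte markers was 11100 to 12100 CPM in Runx1 knockout cultures and 11200 to 11900 CPM in control cultures. In bulk RNA, fewer cells of a type and less RNA per cell cannot be told apart.

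Runx1 mRNA itself had 4.76, 4.81 and 6.74 CPM in the cultures labelled Runx1 knockout, against 2.80, 8.01 and 4.91 CPM in control cultures. The groups overlapped, and the control libraries held both the lowest and the highest value. The log2 fold change was 0.05 with a 95% interval of -0.61 to 0.71 (edgeR QL adjusted p = 1), and a fall of 1 log2 unit lay outside the interval. A count over the whole gene cannot see a small edit, and the loss of the protein was not measured here, so the label is taken as given. Runx2 was at log2 0.27 (SE 0.18), Runx3 at -0.10 (SE 0.26) and the DNA-binding partner Cbfb at -0.04 (SE 0.11), none of them called. Among 18 tested genes of RUNX partners and cofactors, 1 was called: the Groucho corepressor Tle2 had 3.30, 3.02 and 3.28 CPM in Runx1 knockout cultures and 0.682, 1.02 and 1.6 CPM in control cultures, and rose to log2 1.53 (SE 0.28, edgeR QL adjusted p = 0.038). It was also the 1 gene of this list called without double knockout replicate 1.

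Of the 13551 tested genes, 59 were called (0.435%), 55 higher (0.406%) and 4 lower (0.0295%) in Runx1 knockout cultures. In all 59 the 3 knockout libraries lay beyond the 3 control libraries, as did 10.5% of all tested genes on the higher side and 12.4% on the lower side. The genes called higher had a median log2 of 1.43 and ran from 0.57 to 7.07, and 43 of them were at least 2-fold up, as were 3 of the 4 lower genes at least 2-fold down. The median of all tested genes was -0.0095, with 47.9% above 0. At an unadjusted p below 0.05, 616 genes were higher (4.55%) and 326 lower (2.41%). Many of the called genes were weakly expressed: 26 of the 59 averaged under 5 CPM. With double knockout replicate 1 left out of the fit, 386 genes were called (2.8%), 289 higher (2.1%) and 97 lower (0.704%), and all 59 genes stayed among them. With single libraries of either group left out the count was 4 to 28, lowest without control replicate 2, and 4 genes were called in every such fit: Cxcl12, Gas6, Mmp2 and Msln.

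**Figure D1:**
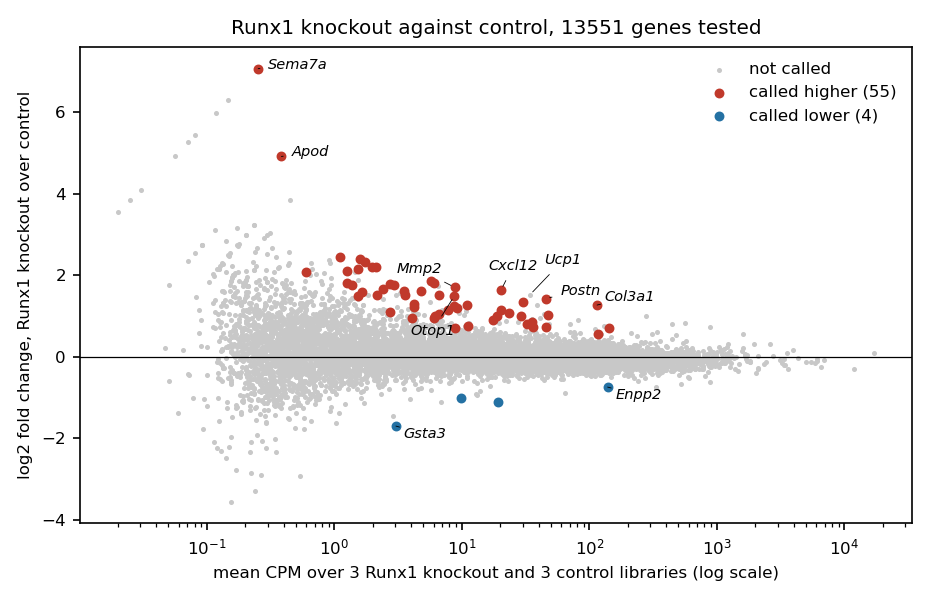
Each point is a gene, placed by its mean CPM over the 6 libraries (log axis) and its log2 fold change, Runx1 knockout over control. Red points are the 55 genes called higher, blue the 4 called lower and grey the rest. Of the called genes 55 lie above 0 and 4 below, Sema7a and Apod are the highest of them at very low CPM, and Ucp1 is a grey point at log2 1.52.

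Genes of the extracellular matrix were among those called higher. Of 42 tested matrix proteins other than collagens, 6 were called higher and 0 lower, and the list's median log2 was 0.55, against -0.0095 over all genes. The rise was not confined to the Runx1 knockout: over the same controls this median was 0.20 in Runx2 knockout and 0.59 in double knockout cultures. Periostin (Postn), a matricellular protein of connective tissue and wounds, had 60.3, 68.5 and 70.1 CPM in Runx1 knockout cultures, against 29.9, 19.8 and 24.1 CPM in control cultures. Every knockout library was more than double the highest control, and Postn rose to log2 1.43 (SE 0.19, edgeR QL adjusted p = 0.0067). Dermatopontin (Dpt), a small matrix protein that assists collagen assembly, had 3.06, 3.21 and 3.49 CPM against 0.862, 0.782 and 0.482 CPM and rose to log2 2.20 (SE 0.27). The matricellular genes Ccn3 and Ccn1 rose to log2 1.51 (SE 0.23) and 1.00 (SE 0.13), the fibulin Efemp1 to 1.26 (SE 0.19), and asporin (Aspn), which binds collagen, to 1.14 (SE 0.21). In the same list 20 of the 42 had an unadjusted p below 0.05 with a higher value and 0 with a lower one. Without double knockout replicate 1, 16 of the list were called higher and 0 lower. Thrombospondin 1 (Thbs1), a matricellular protein, was 1 of those, at log2 0.83 (SE 0.14, edgeR QL adjusted p = 0.0035 in that fit, against 0.27 with all libraries).

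Of 24 collagens tested, 3 were called higher and 0 lower, with a median log2 of 0.40. Their median over control was 0.09 in Runx2 knockout and 0.69 in double knockout cultures. The fibrillar collagen gene Col3a1 had 150, 163 and 175 CPM in Runx1 knockout cultures and 95.7, 47.3 and 59.0 CPM in control cultures. The groups did not overlap, control replicate 1 was the nearest to the knockouts, and the log2 fold change was 1.27 (SE 0.23, edgeR QL adjusted p = 0.038). Col8a1, a short-chain collagen of vessel walls and other matrices, had 14.4, 19.2 and 13.2 CPM against 7.97, 5.0 and 6.53 CPM and rose to log2 1.27 (SE 0.24). Col16a1, a collagen that associates with fibrils, rose to 1.06 (SE 0.16). The abundant Col1a1 had 656, 746 and 774 CPM against 523, 295 and 405 CPM, with no overlap, but was not called (log2 0.83, SE 0.25, edgeR QL adjusted p = 0.33). In the fit that left out double knockout replicate 1, 12 of the 24 collagens were called higher, Col1a1 and Col6a2 among them, and 0 lower.

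Of enzymes that build or cut matrix and their inhibitors, 4 of 35 tested were called higher and 0 lower, with a median log2 of 0.36. This list's median over control was 0.26 in Runx2 knockout and 0.51 in double knockout cultures. For the small leucine-rich proteoglycans below, the medians were 0.62 in Runx1 knockout, 0.43 in Runx2 knockout and 0.82 in double knockout cultures. Mmp2, a gelatinase that degrades denatured collagen, had 14.2, 12 and 14.1 CPM in Runx1 knockout cultures, against 2.80, 5.30 and 4.22 CPM in control cultures. The lowest knockout value was more than double the highest control, and Mmp2 rose to log2 1.71 (SE 0.22, edgeR QL adjusted p = 0.0067). Timp2, an inhibitor that also takes part in the activation of MMP2, had 23.3, 27.1 and 24.7 CPM against 13.5, 12.8 and 11.4 CPM and rose to log2 0.99 (SE 0.12). A pair of genes for collagen maturation also rose, Adamts2, which removes the amino-terminal propeptide, to 1.19 (SE 0.22) and Pcolce, which enhances removal of the carboxy-terminal one, to 0.57 (SE 0.11). Of 8 tested small leucine-rich proteoglycans, which coat collagen fibrils, osteoglycin (Ogn) was called: it had 25, 28.9 and 29.2 CPM against 15.4, 9.42 and 12.8 CPM (log2 1.14, SE 0.19). Biglycan (Bgn) had 162, 162 and 166 CPM against 80.8, 97.7 and 113 CPM without being called (log2 0.75, SE 0.28, edgeR QL adjusted p = 0.53). Leaving out double knockout replicate 1 gave 11 of the 35 enzymes and inhibitors and 2 of the 8 proteoglycans, Ogn and Bgn, as higher.

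**Figure D2:**
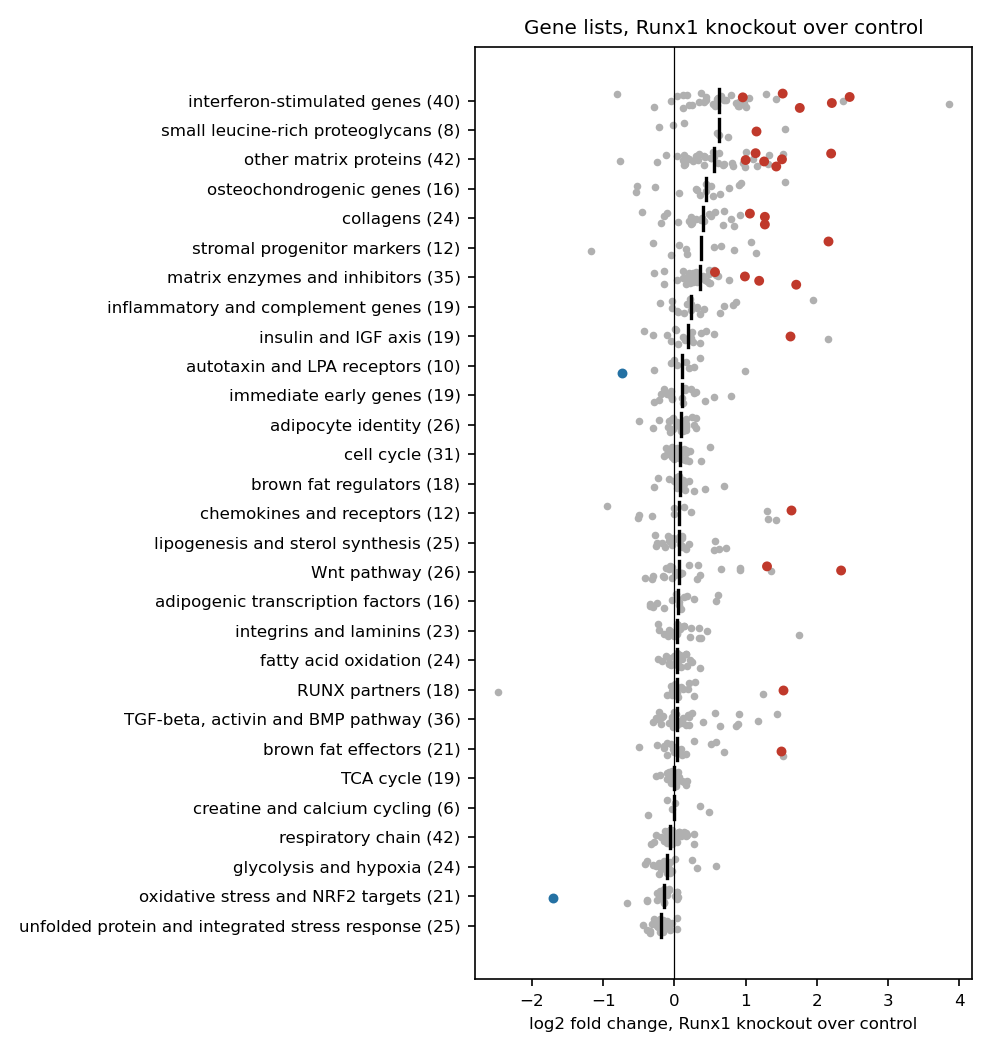
Each row is a gene list with its number of tested members in brackets, each point a member's log2 fold change of Runx1 knockout over control, and each black bar the list's median. Red points are called higher and blue points called lower. Interferon-stimulated genes (0.63), small leucine-rich proteoglycans (0.62) and other matrix proteins (0.55) have the highest medians of the 29 lists. The lowest are those of unfolded protein response genes (-0.19), oxidative stress genes (-0.15), glycolysis and hypoxia genes (-0.1) and respiratory chain genes (-0.06).

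Interferon-stimulated genes, which cells switch on after sensing interferon or viral nucleic acid, were also among them. Of 40 tested, 5 were called higher and 0 lower, 24 had an unadjusted p below 0.05 with a higher value and 0 with a lower one, and the median log2 was 0.63. The rise was not particular to the Runx1 knockout. Over the same control libraries the list's median log2 was 0.69 in Runx2 knockout cultures (2 called higher) and 1.34 in double knockout cultures (29 called higher). In 27 of the 40 the knockout libraries all lay above the controls, and in 0 all below, against the 10.5% and 12.4% of all genes. Ifit1, which binds viral RNA, had 4.09, 4.19 and 5.23 CPM in Runx1 knockout cultures and 1.80, 1.26 and 0.964 CPM in control cultures. It rose to log2 1.76 (SE 0.25, edgeR QL adjusted p = 0.0095). Oasl2, of the oligoadenylate synthetase-like family, had 2.97, 3.64 and 3.94 CPM against 0.790, 0.722 and 0.753 CPM and rose to log2 2.21 (SE 0.29). The 3 control values were nearly equal, and the knockouts were each several times higher. A pair of interferon-inducible GTPases that act against intracellular pathogens rose, Iigp1 to log2 2.46 (SE 0.40) and Igtp to 0.96 (SE 0.18), as did Rtp4 to 1.52 (SE 0.28). The 5 called genes stayed at or below 11 CPM in all 6 libraries. Irf7, a transcription factor that drives interferon genes, was just outside the threshold, with 7.39, 8.20 and 8.0 CPM against 3.99, 3.79 and 4.97 CPM (log2 0.89, SE 0.17, edgeR QL adjusted p = 0.053). When double knockout replicate 1 was left out, 20 of the 40 were called higher, Irf7, Ifi44 and Xaf1 among them, and 0 lower. Markers of the immune cells that respond to interferon were scarce: the sum of 13 macrophage markers was 5.66 to 7.21 CPM in Runx1 knockout cultures and 5.35 to 5.87 CPM in control cultures, with Adgre1, Tyrobp, C1qa, C1qb and Ptprc at 0, and that of 9 lymphocyte markers was 0.12 to 0.216 CPM against 0.15 to 0.287 CPM.

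Interferon genes are classically switched on through an element with the core GAAANNGAAA, bound by IRF proteins with STATs. This core, searched for on either strand after the interferon genes had been seen to be higher, was found in the 250 bases before the start of 15 of the 30 tested interferon genes with a promoter sequence at hand (50%), of 2 of 42 genes called higher (4.76%) and of 267 of 10754 tested genes (2.48%). The 3 called interferon genes with a sequence are printed because the first pair carries that core, in capitals, and Oasl2 does not, its capitals marking a RUNX core instead. The sequences are RefSeq's, on GRCm38.p6, read on the gene's strand.
Ifit1, chr19:34640639-34640888, plus strand: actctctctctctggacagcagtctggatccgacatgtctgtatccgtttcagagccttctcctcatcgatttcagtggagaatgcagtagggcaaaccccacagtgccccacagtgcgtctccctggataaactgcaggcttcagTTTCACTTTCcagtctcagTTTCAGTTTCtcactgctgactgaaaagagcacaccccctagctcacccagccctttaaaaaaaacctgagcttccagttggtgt
Igtp, chr11:58199306-58199555, plus strand: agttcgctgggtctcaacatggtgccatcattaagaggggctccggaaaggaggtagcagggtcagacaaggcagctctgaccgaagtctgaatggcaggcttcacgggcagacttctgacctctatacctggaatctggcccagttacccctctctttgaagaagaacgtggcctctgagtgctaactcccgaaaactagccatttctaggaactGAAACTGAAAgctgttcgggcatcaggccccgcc
Oasl2, chr5:114896684-114896933, plus strand: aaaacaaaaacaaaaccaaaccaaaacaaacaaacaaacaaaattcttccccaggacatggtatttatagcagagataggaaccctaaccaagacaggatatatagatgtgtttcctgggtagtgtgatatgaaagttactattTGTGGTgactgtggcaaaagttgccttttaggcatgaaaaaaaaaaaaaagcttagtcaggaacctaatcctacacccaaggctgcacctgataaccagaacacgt
In Ifit1 the core occurred at 2 places, starting 104 and 85 bases before the start, and in Igtp at 1 place, 34 bases before it. A match of letters is a description of the window and not a measured binding site.

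A few members of the chemokine, Wnt, IGF and stromal progenitor lists were also called, and 2 called genes in no list, Gas6 and Il1rn, are given with them. Cxcl12, the chemokine that binds CXCR4 and retains blood precursors in the marrow, had 29.3, 29.7 and 33.1 CPM in Runx1 knockout cultures, against 10.3, 7.58 and 11.7 CPM in control cultures. It rose to log2 1.64 (SE 0.17, edgeR QL adjusted p = 0.0052), with knockout libraries close together and far above the controls, and was the 1 called gene of 12 tested chemokines and receptors. Gas6, the ligand of the AXL and MERTK receptors, had 46.4, 40.8 and 42.1 CPM against 20.2, 12.9 and 17.9 CPM and rose to log2 1.34 (SE 0.15, edgeR QL adjusted p = 0.0064). In the Wnt pathway 2 of 26 tested genes were called: Sfrp2, a secreted modulator of Wnt signalling, rose to log2 2.34 (SE 0.29), and Rspo2, an R-spondin that strengthens it, to 1.3 (SE 0.24). Igfbp3, which binds insulin-like growth factors, was the 1 called gene of 19 in the insulin and IGF list. It had 7.27, 7.83 and 6.56 CPM in Runx1 knockout cultures and 2.66, 1.5 and 2.89 CPM in control cultures, and rose to log2 1.62 (SE 0.26). Dlk1, the preadipocyte protein Pref-1 that restrains adipogenesis, was the 1 called gene of 12 stromal progenitor markers. It had 2.42, 3.33 and 1.74 CPM against 0.862, 0.542 and 0.301 CPM (log2 2.15, SE 0.34). These 12 markers did not all move 1 way: they ran from log2 -1.17 to 2.15, with 9 above 0 and 3 below. At an unadjusted p below 0.05, 5 of them were higher and 2 lower, against 4.55% and 2.41% of all tested genes. Il1rn, the interleukin 1 receptor antagonist, is in no list and was named after its value was seen; it had 32.9, 30.8 and 31.0 CPM against 14.7, 13.3 and 17.0 CPM and rose to log2 1.07 (SE 0.17). In the fit without double knockout replicate 1, the Wnt list had 3 genes called higher, adding Sfrp1 (log2 1.36), the stromal list 3, adding Ly6a and Cd248 (1.16 and 0.57), the insulin and IGF list 2, adding Irs1 (0.37), and the chemokine list again 1, with 0 lower in each. Of 36 tested genes of the TGF-beta, activin and BMP pathway 0 were called by edgeR QL with all libraries (5 had an unadjusted p below 0.05, all higher), and 4 were called higher without double knockout replicate 1, among them Fst and Fstl1, which bind activins, at log2 1.45 and 0.92.

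The RUNX core, TGTGGT or TGCGGT on either strand, was present in the 250 bases before the start of 11 of the 42 genes called higher that had a sequence (26.2%), of 1 of 3 called lower (33.3%), of 1849 of 10754 tested genes (17.2%) and of 5044 of all 27025 promoters (18.7%). Sequences matched 45 of the 59 called genes by symbol. Gas6 and Cxcl12 are shown because they were the genes that differed from the Runx2 knockout, described further on. Gas6 holds the core once, 142 bases before the start, read from the other strand as ACCGCA and set in capitals, and Cxcl12 holds none in this window. Both are RefSeq sequences on GRCm38.p6, read on the gene's strand.
Gas6, chr8:13494536-13494785, minus strand: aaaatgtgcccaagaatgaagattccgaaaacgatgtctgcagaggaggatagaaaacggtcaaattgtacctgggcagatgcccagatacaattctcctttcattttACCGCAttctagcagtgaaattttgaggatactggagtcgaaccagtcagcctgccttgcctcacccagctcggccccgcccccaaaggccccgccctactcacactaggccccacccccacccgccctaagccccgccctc
Cxcl12, chr6:117168285-117168534, plus strand: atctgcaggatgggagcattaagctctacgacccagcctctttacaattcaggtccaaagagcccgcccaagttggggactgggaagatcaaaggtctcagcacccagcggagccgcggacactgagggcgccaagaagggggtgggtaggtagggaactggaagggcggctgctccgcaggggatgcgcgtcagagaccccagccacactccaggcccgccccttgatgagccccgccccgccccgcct

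Among thermogenic genes the differences lay in a few members. Ucp1 had 52.3, 45.2 and 54.4 CPM in Runx1 knockout cultures, against 9.63, 21.2 and 22.0 CPM in control cultures. Every knockout library was more than double the highest control, and control replicate 1 lay well below the other controls. The log2 fold change of 1.52 (SE 0.30, 95% interval 0.93 to 2.11) was just outside the threshold (edgeR QL adjusted p = 0.055), and passed it without double knockout replicate 1 (log2 1.53, SE 0.23, edgeR QL adjusted p = 0.004). Otop1, which encodes a proton channel, was the 1 called gene of 21 tested brown fat effectors. It had 11.2, 11.2 and 16.2 CPM in Runx1 knockout cultures and 3.74, 4.82 and 5.15 CPM in control cultures, and rose to log2 1.49 (SE 0.20, edgeR QL adjusted p = 0.0067). The median of the 21 was 0.03, with 11 above 0 and 10 below. Cidea, which promotes the fusion of lipid droplets, was at log2 -0.11 (SE 0.17), the respiratory subunit Cox8b at 0.10 (SE 0.29) and the fatty acid elongase Elovl3 at 0.03 (SE 0.21). Dio2, the deiodinase that activates thyroid hormone in brown fat, was at 0 in all 3 knockout libraries and at or below 0.0718 CPM in the controls, so it was not tested. Without double knockout replicate 1, 4 brown fat effectors were called higher, adding Ucp1, Mpzl2 and the elongase Elovl6 (log2 0.60 and 0.70) to Otop1, and 1 lower, the beta-3 adrenergic receptor Adrb3 (log2 -0.49, SE 0.097), which is named here after its value was seen.

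Regulators of the brown program and the general machinery of the adipocyte gave no call with all libraries. Ppargc1a, the coactivator of mitochondrial biogenesis, was at log2 0.43 (SE 0.23) and Prdm16, a coregulator of brown identity, at 0.28 (SE 0.22), and 0 of 18 regulators were called by edgeR QL (0 higher and 1 lower at an unadjusted p below 0.05). Of 26 adipocyte identity genes 0 were called (1 higher and 1 lower at an unadjusted p below 0.05), with a median of 0.09; Pparg, the master regulator of fat cell differentiation, was at log2 0.09 (SE 0.12) and the droplet coat gene Plin1 at 0.12 (SE 0.19). With double knockout replicate 1 left out, 2 identity genes were called lower, Dgat2, which completes triglyceride synthesis (log2 -0.47, SE 0.079, edgeR QL adjusted p = 0.0019), and Cfd, the adipokine adipsin (log2 -0.29, SE 0.075, edgeR QL adjusted p = 0.043), and 0 higher; of the brown fat regulators and the respiratory chain genes 0 were called in either direction. Of 42 respiratory chain genes 0 were called by edgeR QL, 0 reached an unadjusted p below 0.05 in either direction, and they ran from log2 -0.33 to 0.27 with a median of -0.06.

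**Figure D3:**
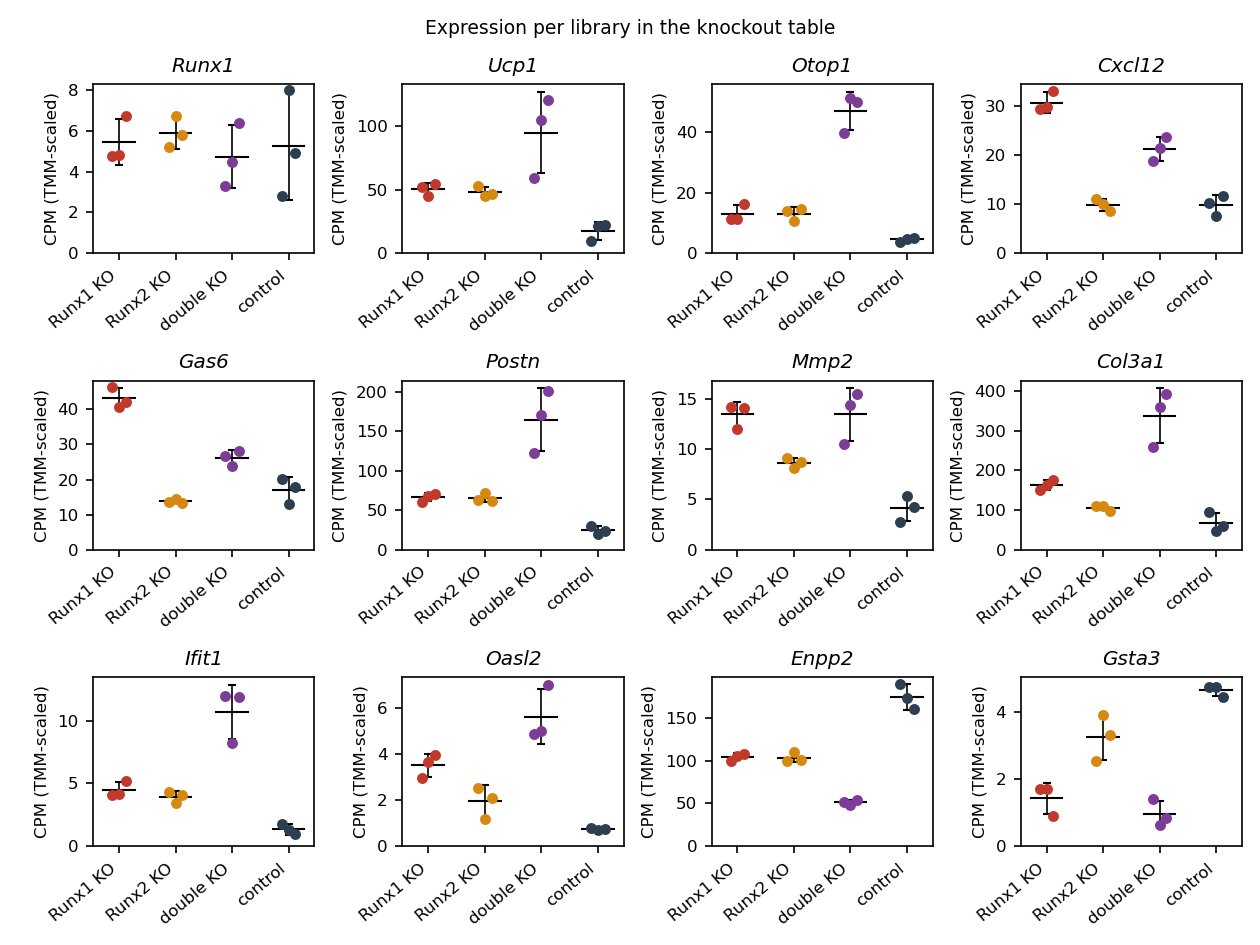
Each panel shows 1 gene in CPM scaled by TMM, with 1 point per library, a bar at the group mean and whiskers of 1 SD, for Runx1 knockout, Runx2 knockout, double knockout and control cultures (n = 3 each). Runx1 overlaps between groups, Gas6 and Cxcl12 are high in Runx1 knockout but not in Runx2 knockout cultures, and Enpp2 and Gsta3 are lower than in controls.

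Only 4 genes were called lower. Enpp2 encodes autotaxin, a secreted enzyme that makes lysophosphatidic acid (LPA) and is abundant in fat; it had 100, 105 and 108 CPM in Runx1 knockout cultures and 190, 173 and 160 CPM in control cultures. The groups were far apart relative to their spread, and Enpp2 fell to log2 -0.74 (SE 0.10, edgeR QL adjusted p = 0.0087). The LPA receptor Lpar1 lay the other way, at 1.94, 1.70 and 2.77 CPM against 1.29, 0.602 and 1.33 CPM, without being called (log2 0.99, SE 0.31, edgeR QL adjusted p = 0.35). Gsta3, a glutathione transferase, had 1.70, 1.70 and 0.902 CPM against 4.74, 4.76 and 4.46 CPM and fell to log2 -1.70 (SE 0.31, edgeR QL adjusted p = 0.038). The cytochrome P450 gene Cyp2ab1 fell to -1.12 (SE 0.17) and the carbohydrate sulfotransferase Chst1 to -1.0 (SE 0.18).

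The largest fitted changes were in genes close to silence. Sema7a, a membrane-anchored semaphorin, had 14, 12 and 24 counts in the Runx1 knockout libraries and 0 in each control library, which is at least 15.9-fold higher when the control group is set to 3 counts in all. Apod, the lipid carrier apolipoprotein D, had 32, 18 and 24 counts against 0, 0 and 2 counts, a ratio of 35.3 with a counting interval of 9.44 to 297. The Sema7a limit and the Apod interval cover counting error only and take every count as independent. Even counts were more common than odd ones in all 6 libraries (72.6 to 79.4% of values from 1 to 19). This would be seen if each fragment were counted by both of its reads, which was not tested. With such double counting the limit would be lower and the interval wider. Others among the strongest were Sp100, a protein of nuclear bodies (2.45, 2.53 and 3.04 CPM against 0.431, 0.301 and 0.783 CPM, log2 2.39, SE 0.31), Cobl, which nucleates actin (log2 2.12, SE 0.33), and the actin-associated Synpo (log2 1.82, SE 0.34). Genes of the cytoskeleton and of mesenchymal cells that belong to no list were also called, and are named after their values were seen: the tubulins Tubb2b and Tuba1a (log2 1.59 and 0.74), the intermediate filament gene Nes (0.94) and the mesenchymal homeobox gene Prrx1 (0.73).

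Some marker sums of other cells differed between the groups. The sum of 9 mesothelial and epithelial markers was 12.5 to 14.8 CPM in Runx1 knockout cultures and 6.23 to 7.41 CPM in control cultures. The called Msln, mesothelin, had 5.69, 5.09 and 5.02 CPM against 1.51, 1.93 and 1.75 CPM, and Krt19 had 4.54, 7.09 and 5.53 CPM against 2.15, 2.05 and 3.61 CPM. Of the 4 members tested, these 2 lay above 0 and the other 2, Lrrn4 and Krt18, below it. The sum of 6 preadipocyte markers was 74.9 to 79.6 CPM against 60 to 73.1 CPM, and that of 9 Schwann and neural markers 13.7 to 16.4 CPM against 8.67 to 13.2 CPM. Much of the Schwann and neural sum was S100b, also in the brown fat effector list, which averaged 9.85 CPM over the 6 libraries (log2 0.51). Of the 4 Schwann and neural markers tested, 3 lay above 0 and 1 below, with a median log2 of 0.15. Of 10 myofibroblast and smooth muscle markers the sum was 171 to 176 CPM against 168 to 189 CPM. Endothelial markers, 10 in all, summed to 18.4 to 27.2 CPM against 17.9 to 21.9 CPM. The part of these cells in the matrix and interferon results was not tested. The sum of 12 cardiac markers, 624 to 794 CPM against 958 to 1230 CPM, was almost wholly myoglobin (Mb), which had 623, 793 and 666 CPM against 956, 1230 and 1040 CPM and was not called (log2 -0.63, SE 0.23, edgeR QL adjusted p = 0.53). Both Krt19 (log2 1.14, edgeR QL adjusted p = 0.0071) and Mb (log2 -0.62, edgeR QL adjusted p = 0.036) were called without double knockout replicate 1. Skeletal muscle markers stayed between 2.08 and 3.85 CPM in sum.

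Set against the Runx2 knockout directly, 2 genes differed (0.0148%), both higher in Runx1 knockout cultures (0.0148%), and 0 were lower (0%), by edgeR QL. At an unadjusted p below 0.05, 239 genes were higher (1.76%) and 149 lower (1.1%), and DESeq2 called 29. Gas6 had 46.4, 40.8 and 42.1 CPM in Runx1 knockout cultures, against 13.7, 14.5 and 13.4 CPM in Runx2 knockout cultures (log2 1.64, SE 0.16, 95% interval 1.33 to 1.94, edgeR QL adjusted p = 0.0025). Cxcl12 had 29.3, 29.7 and 33.1 CPM against 11.1, 10.0 and 8.64 CPM (log2 1.63, SE 0.17, 95% interval 1.3 to 1.96, edgeR QL adjusted p = 0.0034). In both genes all 3 Runx2 knockout libraries lay within the range of the control libraries. Leaving out Runx2 knockout replicate 2 or 3 put Cxcl12 just outside the threshold (edgeR QL adjusted p = 0.056 and 0.05). For the other called genes the adjusted p of this difference was 0.22 or more, lowest for Ccn3 (log2 1.36). In some the interval was narrow: the difference was 0.02 for Postn (-0.34 to 0.38), -0.02 for Otop1 (-0.40 to 0.35), and 0.00 for Enpp2 (-0.20 to 0.21). For Ucp1 it was 0.07, with an interval of -0.50 to 0.64.

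The Runx1, Runx2 and double knockouts were compared with the same 3 control libraries, so their fold changes over control are not independent. Over control, the 55 genes called higher had a median log2 of 1.43 in Runx1 knockout, 0.92 in Runx2 knockout and 1.95 in double knockout cultures. Of the 55, 15 were called higher in Runx2 knockout cultures, where 0.184% of genes were called (0.177% higher and 0.00738% lower), and 51 in double knockout cultures, where 15.3% were called (8.27% higher and 7.01% lower). Of the 4 genes called lower, 1 was called lower in Runx2 knockout cultures (Enpp2, log2 -0.75) and all 4 in double knockout cultures.

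Between Runx1 knockout and double knockout cultures 873 genes differed (6.44%), 410 higher (3.03%) and 463 lower (3.42%) in the Runx1 knockout. Among the 59 genes, which had been picked on the same Runx1 knockout libraries, 26 were lower in Runx1 knockout than in double knockout cultures and 6 higher. Otop1 was lower by the most, with 11.2, 11.2 and 16.2 CPM in Runx1 knockout against 39.7, 51.1 and 50 CPM in double knockout cultures (log2 -1.87, SE 0.19, edgeR QL adjusted p = 5.3e-04). Postn was lower at log2 -1.31 (SE 0.19) and Ifit1 at -1.25 (SE 0.23). The 6 higher ones were Enpp2, whose fall was the smaller in the Runx1 knockout, and Ccn3, Rspo2, Gas6, Rnf144b and Ccn1, at log2 0.61 to 1.03. Gas6 had 26.7, 23.8 and 28.1 CPM in the double knockout, below all Runx1 knockout libraries and above all controls. Ucp1 had 59.3, 105 and 121 CPM in double knockout cultures, and its difference was not called (log2 -0.91, SE 0.29, edgeR QL adjusted p = 0.084). Outside the 59, the genes farthest apart included Pappa, a protease that cleaves IGF-binding proteins (log2 1.89), and Adamtsl3 (log2 2.17) on the higher side, and the cytochrome P450 gene Cyp4b1 (log2 -3.34) on the lower. The count of 873 was 7 with these 2 groups fitted alone, 1779 without double knockout replicate 1 and 176 without Runx1 knockout replicate 2.

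**Figure D4:**
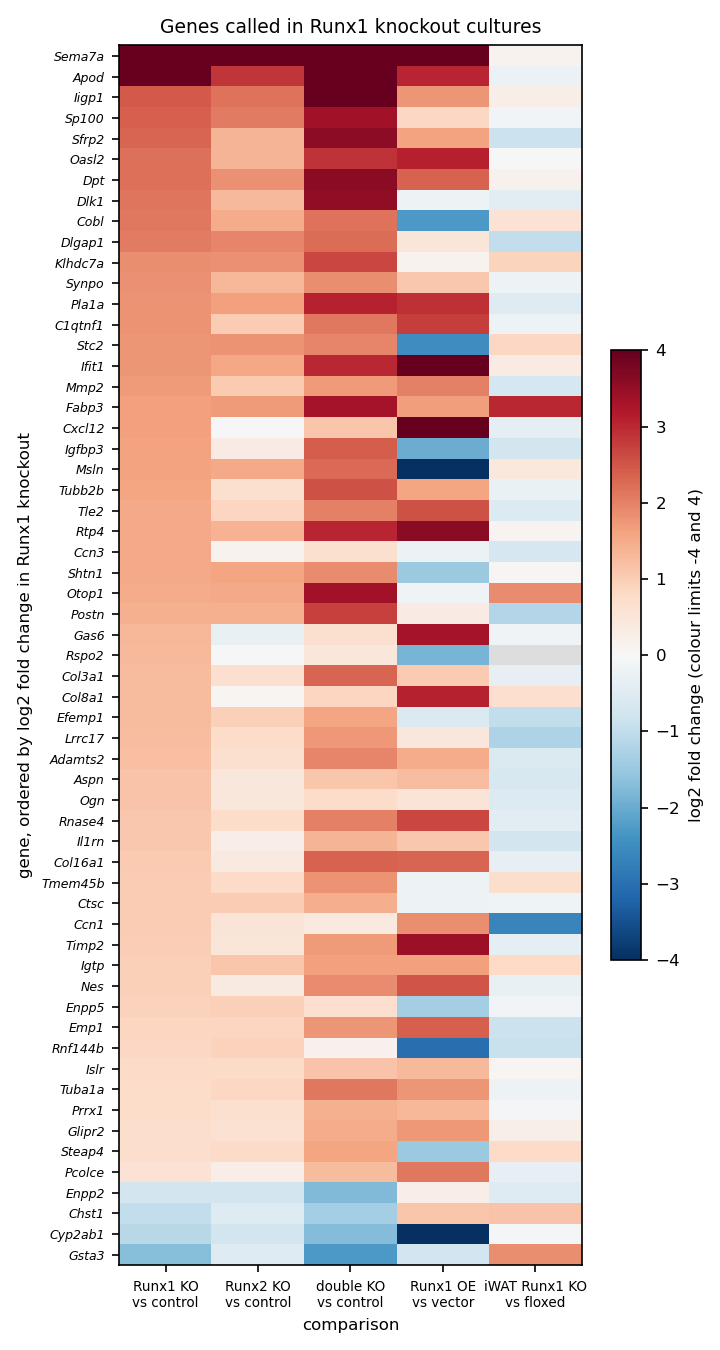
Rows are the 59 genes called between Runx1 knockout and control cultures, ordered by that log2 fold change, and columns are 5 comparisons, each over its own reference named below the column; the first 3 share their control libraries. Colour gives the log2 fold change, held at -4 and 4, with grey for a gene not tested. The double knockout column is mostly the darkest of the first 3, the Runx1 overexpression column is mixed, and the iWAT column is mostly pale.

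In the table of Runx1 overexpression, which has its own controls, 7912 of 14661 genes were called (54%), 4134 higher (28.2%) and 3778 lower (25.8%). Of the 55 genes higher in the knockout, 34 were called higher also with Runx1 overexpressed (61.8% of the 55 and 0.822% of the 4134) and 9 lower (16.4% of the 55 and 0.238% of the 3778); their median log2 there was 1.48, against 0.06 over all genes. Cxcl12 rose to log2 4.02 over empty vector (SE 0.34), Gas6 to 3.34 (SE 0.15), Timp2 to 3.41 and Ifit1 to 4.19 (SE 0.16), the same direction as in the knockout cultures. Msln, Igfbp3 and Rspo2 went the other way and fell to -4.0, -1.99 and -1.85. Ucp1 also lay on opposite sides, at log2 1.52 in the knockout and -6.67 (SE 0.26) with Runx1 overexpressed. Of the 4 lower genes, 2 fell with overexpression, Cyp2ab1 (-4.0) and Gsta3 (-0.77), and 1 rose, Chst1 (1.12). Whether a knockout effect and an overexpression effect differ was not tested, since the tables were normalized separately.

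In iWAT of Adipoq-cre:Runx1 KO mice, 1189 of 15896 genes differed from floxed controls (7.48%), 708 higher (4.45%) and 481 lower (3.03%). Of the 55 genes 54 were tested there; 2 were called higher (3.64% of the 55 and 0.282% of the 708), the GTPase Igtp at log2 0.80 (edgeR QL adjusted p = 0.011) and the metalloreductase Steap4 at 0.75 (edgeR QL adjusted p = 0.048). Only Rnf144b, a ubiquitin ligase, was called lower (1.82% of the 55 and 0.208% of the 481), at log2 -0.90. The 54 had a median log2 of -0.21, against 0 for all genes. Some matrix genes that rose in the cultures had values below 0 in iWAT without a call: Postn (-1.18, SE 0.32, edgeR QL adjusted p = 0.072), Col3a1 (-0.33) and Mmp2 (-0.70). Otop1 was at 1.88 (SE 0.55, edgeR QL adjusted p = 0.065) and Fabp3, a fatty acid carrier of oxidative tissues, at 3.01 (edgeR QL adjusted p = 0.40). Ucp1 was higher at log2 2.88 (SE 0.53, edgeR QL adjusted p = 0.044). Of the 4 genes lower in the cultures, 0 were called in iWAT by edgeR QL. With iWAT knockout replicate 2 left out, the count of 1189 was 99.

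**Figure D5:**
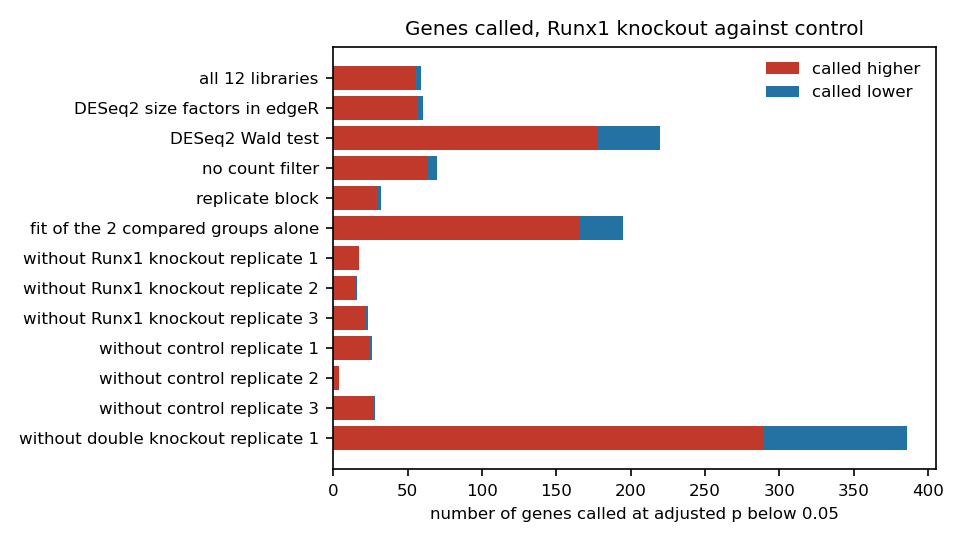
Bars give the number of genes called between Runx1 knockout and control cultures under each setting, red for higher and blue for lower. The count is 59 with all 12 libraries, 386 without double knockout replicate 1, and 4 to 28 with 1 of the 6 compared libraries left out; genes called higher outnumber those called lower throughout.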

How the data were processed

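The submitters' processing notes name fastp, STAR and featureCounts as tools and mm39 as the genome; versions and options are not given in the sources used here. The deposited values are raw whole-number counts, with gene symbols as rows and libraries as columns. Libraries were grouped by their labels. The 3 tables used were fitted separately with edgeR 4.0.16 in R 4.3.3: filterByExpr by group, TMM, robust quasi-likelihood test, and Benjamini-Hochberg adjustment over all tested genes, called below 0.05. The knockout fit used all 12 libraries, 28.1 to 36 M counts each. The procedure was tested on simulated data. The gene lists, the groups and the rule for named genes were chosen with earlier results of these data known. Named are 16 set genes, every called gene in a list, the 12 called genes with the highest and all with the lowest fold change, up to 3 further genes of lowest p per list, and 4 called genes per direction against the other knockouts, predicted genes left out; the text gives a part of them. Steap4, Rnf144b and Fabp3 were named after their values were seen. The alternatives tried were scaling by DESeq2 1.42.0, its own test, dropping the filter, a block for the replicate number, fitting only the compared groups and omitting single libraries; leaving out double knockout replicate 1 was chosen after seeing the data. The annotation at hand is of another build than the counts, so positions are given only for the printed promoter windows, on GRCm38.p6. Reads of near-identical genes may have been split, which bears on Ifit1, Oasl2, Iigp1, Tuba1a and Tubb2b. Promoters were matched by symbol to RefSeq (GRCm38.p6). Figures were drawn with matplotlib 3.10.9 in Python 3.11.15.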

Additional observations from a re-analysis of the deposited data

Results flagged for a closer look

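The effects of the Runx1 and the Runx2 knockout differed in 2 genes by the test of the difference itself. Gas6 was higher in Runx1 knockout than in Runx2 knockout cultures by log2 1.64, in 3 of 3 libraries against every Runx2 knockout library (edgeR QL adjusted p = 0.0025). Cxcl12 was higher by log2 1.63, again in 3 of 3 libraries (edgeR QL adjusted p = 0.0034). The groups held 3 libraries each, so the search for single libraries that stand apart within a group, which needs at least 4, was not run.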

How the results depend on the processing

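All 59 genes kept their direction under every setting tried. The count of 59 was 60 with DESeq2 size factors, 70 without a count filter, 220 with the DESeq2 test, 195 with the 2 groups alone, 386 without double knockout replicate 1, and 4 to 28 with single libraries left out; the DESeq2 test and the fit without double knockout replicate 1 kept all 59 and the 2-group fit 58. The share of calls that were higher was 93.2%, against 80.9% with DESeq2, 84.6% in the 2-group fit and 74.9% without double knockout replicate 1. With the replicate number as a block 32 genes were called, all among the 59. Same-numbered Runx1 knockout and control libraries, after removal of group means, correlated at r = -0.113, -0.009 and -0.006. Why the block gave fewer calls was not tested.

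Against Runx2 knockout the count of 2 was 29 with DESeq2, 192 with the pair alone, 30 without double knockout replicate 1, and 1 to 2 with single libraries left out, lowest without Runx2 knockout replicate 2 or 3. Against double knockout 873 became 1913 with DESeq2, 7 with the pair alone, 1779 without double knockout replicate 1, and 176 to 1952 with single libraries left out. For iWAT 1189 became 2286 with DESeq2, 744 with a replicate block, and 99 to 1381 with single libraries left out. The overexpression count stayed within 1.5 times under every setting, at 6710 to 8489 with single libraries left out.

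Runx1 turned to -0.14 without Runx1 knockout replicate 3 and to -0.23 without control replicate 1 (range -0.23 to 0.49). Ucp1 passed the threshold with DESeq2 (log2 1.53, DESeq2 adjusted p = 1.1e-04), with the 2 groups alone (1.54, edgeR QL adjusted p = 0.012) and without double knockout replicate 1 (1.53). With single libraries left out it was at log2 1.25 to 1.71, with edgeR QL adjusted p of 0.11 to 0.22. Among uncalled genes, the sign turned with a library left out for Runx3 (0.19, range -0.30 to 0.19), Cbfb (0.03 and 0.04, range -0.11 to 0.04), Elovl3 (-0.15 and -0.07, range -0.15 to 0.14) and Plin1 (-0.03, range -0.03 to 0.23). The causes were not tested. Genes near a few counts per library, 26 of the 59 being under 5 CPM, rest on the least data.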

Other observations

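Stress response and lipid synthesis genes gave small differences that, apart from the called Gsta3, did not pass with all libraries. Of 25 unfolded protein and integrated stress response genes 23 lay below 0 in Runx1 knockout cultures relative to controls, with a median log2 of -0.19; edgeR QL called 0, and 4 had an unadjusted p below 0.05, all lower. Trib3, a stress-induced pseudokinase, had 290, 292 and 297 CPM in Runx1 knockout cultures and 413, 417 and 365 CPM in control cultures (log2 -0.44, SE 0.13, edgeR QL adjusted p = 0.31). Among 21 genes of oxidative stress and NRF2 the median was -0.15. Hmox1, heme oxygenase 1, had 339, 450 and 426 CPM against 608, 699 and 619 CPM (log2 -0.66, SE 0.16, edgeR QL adjusted p = 0.16). The glutathione synthesis gene Gclm was at -0.39 (SE 0.11).

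Of 25 genes of lipogenesis and sterol synthesis, 2 had an unadjusted p below 0.05 with a higher value and 1 with a lower one, and the median was 0.06. Over all tested genes the shares were 4.55% higher and 2.41% lower, and whether the list departs from them was not tested. Acly, which makes cytosolic acetyl-CoA, had 1160, 1100 and 1050 CPM in Runx1 knockout cultures and 743, 600 and 665 CPM in control cultures (log2 0.72, SE 0.20, edgeR QL adjusted p = 0.27). Acaca, acetyl-CoA carboxylase, had 455, 400 and 388 CPM against 269, 259 and 282 CPM (log2 0.62, SE 0.27, edgeR QL adjusted p = 0.65). Dgat2, a gene of triglyceride synthesis that is in the adipocyte identity list and not in this one, had 532, 483 and 471 CPM in Runx1 knockout cultures against 626, 769 and 688 CPM in control cultures (log2 -0.49, SE 0.11, edgeR QL adjusted p = 0.13). Without double knockout replicate 1, 3 lipogenesis genes were called higher, Acly, Acaca and Fasn, and 0 lower; 3 unfolded protein response genes and 4 oxidative stress genes were called lower, Trib3 and Hmox1 among them, and 0 higher, and Dgat2 was called lower.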
